A study of Homo sapiens with 12 samples.

Results

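The 38 genes here encode the machinery that takes up glucose, splits it to pyruvate and turns pyruvate to lactate or switches pyruvate dehydrogenase off. Genes of the response to low oxygen are among them. All 38 were named from a fixed list by symbol: 4 transporters, 9 upper glycolysis genes, 3 PFKFB enzymes and 6 lower glycolysis genes. The rest were 4 genes of pyruvate fate, 3 of oxygen sensing and 9 other hypoxia response genes. Of the 38 genes, 35 had a probe set that the platform annotation assigned to that symbol alone, 90 probe sets in all, and 34 passed the filter on low values, among 10729 genes tested. SLC16A1 and SLC16A3, the exporters of lactate, and CA9, a carbonic anhydrase, were not analysed here. PFKFB4 stayed below the filter, with values between 2.54 and 2.59 on its first probe set and between 3.48 and 4.62 on the other.

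The RNA came from HK-2 cells, an immortalized human line derived from proximal tubule epithelium of the kidney, in a study that looked for expression signatures of toxicity. Cells near confluency received a high dose of Ota for 24 h or for 72 h. Their references were cells of the same line that received the vehicle for 24 h or for 72 h. Each of these 4 groups held 3 arrays, 12 in all. The labels spell out neither the name Ota nor its amount. All groups share 1 immortalized cell line, kept in a serum-free growth medium with 5 mM glucose, insulin, transferrin, hydrocortisone and epidermal growth factor. The arrays of a group are called biological replicates with no word on separate cultures, so a p-value reflects only how far these particular samples spread, and precision is limited by the number of arrays. Values are log2 GCRMA values per probe set, as the authors deposited them, and a difference of 1 is a factor of 2. Levels of different genes are not set against each other, since each probe set has its own brightness.

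Glycolysis breaks glucose down to pyruvate in the cytosol and yields a small amount of ATP without oxygen. When oxygen is low, prolyl hydroxylases of the EGLN family stop marking the transcription factor subunit HIF1A for destruction, and HIF1A raises many genes of glucose uptake, glycolysis, lactate formation and blood vessel growth. Healthy proximal tubules rely mostly on oxidative metabolism, while cultured lines derived from them use glycolysis to a larger extent. HIF1A is controlled mainly through its protein, which these arrays do not measure.

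Most genes on these arrays responded to Ota, which sets the background for every count below. By limma's Benjamini-Hochberg adjusted p under 0.05, the criterion for "rose" and "fell" throughout, 61.3% of all genes tested changed at 24 h and 60.1% at 72 h. Added and ribosomal RNAs also differed. With Ota the poly-A spike-ins, foreign transcripts added to each sample, gained 1.85 at 24 h and 0.89 at 72 h, and 18S ribosomal probe sets gained 1.58 and 1.34 (exact permutation, two-sided p = 0.1 each, the smallest that 3 against 3 arrays allow). The median of all genes tested was -0.24 at 24 h and -0.11 at 72 h as deposited, 0.32 and 0.17 after centring each array on its median, and -2.09 and -1.003 after scaling to the spike-ins. The direction of a small change therefore depends on the scale. The 3' minus 5' difference of control probe sets widens when RNA is degraded. For ACTB it was 1.67 to 2.32 with Ota and 1.21 to 1.48 in controls at 72 h, a difference of 0.58 with no overlap (exact permutation p = 0.1, again the smallest possible), against 0.05 at 24 h (exact p = 0.9). For GAPDH it was 0.03 larger with Ota at either time (exact permutation p = 0.3 for 24 h and 0.7 for 72 h). The part of RNA quality in the 72 h results was not tested.

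Of 15 markers of proximal tubule and epithelial cells, 7 passed the filter (KRT7, KRT8, KRT18, KRT19, PAX8, CDH6 and VIM). The defining tubule genes CUBN, LRP2, AQP1, GGT1, ANPEP, SLC34A1 and PAX2 stayed below it. The mean level over this list ranged from 6.37 to 6.94 with Ota and from 6.78 to 6.96 in 24 h controls, and from 6.25 to 6.55 with Ota and 6.74 to 6.80 in controls at 72 h. Of the 7, 1 rose and 3 fell at 24 h, and 0 rose and 5 fell at 72 h, beside 20.8% risen and 40.5% fallen of all genes tested at 24 h and 24.8% and 35.2% at 72 h. KRT19 (-2.42 and -1.31) and PAX8 (-2.53 and -1.59) fell at both times, KRT18 fell at 24 h (-1.45), and CDH6 (-0.60) and VIM (-1.13) fell at 72 h. KRT7 had 0.99 at 24 h and -1.52 at 72 h, and KRT8 passed at neither time (0.13 and 0.60). No endothelial marker of 6 and no leukocyte marker of 5 with a probe set passed the filter. It was passed by 3 of 6 fibroblast markers, 2 of 3 podocyte markers and 1 of 4 markers of distal tubule and collecting duct. Among the fibroblast markers LUM rose at both times (0.69 and 1.55), COL1A1 fell at 24 h (-1.94) and DCN changed at neither. Of the podocyte markers 0 changed at 24 h and 1 rose at 72 h. AQP3, the distal marker, rose at both times (1.09 and 2.02). The part of these cell types in the results below was not tested, and fewer cells of a kind cannot be told apart from less RNA per cell.

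At 24 h, 5 of the 34 members tested rose with Ota and 6 fell, which is 14.7% and 17.6% of them, against a background of 20.8% and 40.5% of all genes tested. The risen members were ALDOC, SLC2A1, PDK3, GPI and PGK1, and the fallen ones PFKFB2, ENO2, HK2, HK1, SLC2A3 and P4HA1. The median log2 fold change of the members was 0.03. At 72 h, 15 rose and 10 fell, which is 44.1% and 29.4% of the members, against a background of 24.8% and 35.2%, and their median was 0.29. The Ota and control arrays did not overlap for 15 members at 24 h and for 28 at 72 h, against 65.7% and 73.7% of all genes tested. The counts moved with the scale. At 24 h 21 rose and 2 fell after centring and 1 rose and 33 fell after spike-in scaling. At 72 h 17 rose and 8 fell after centring and 0 rose and 16 fell after spike-in scaling. Quantile normalization moved them less, with 6 risen and 7 fallen at 24 h and 15 and 12 at 72 h.

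**Figure D1:**
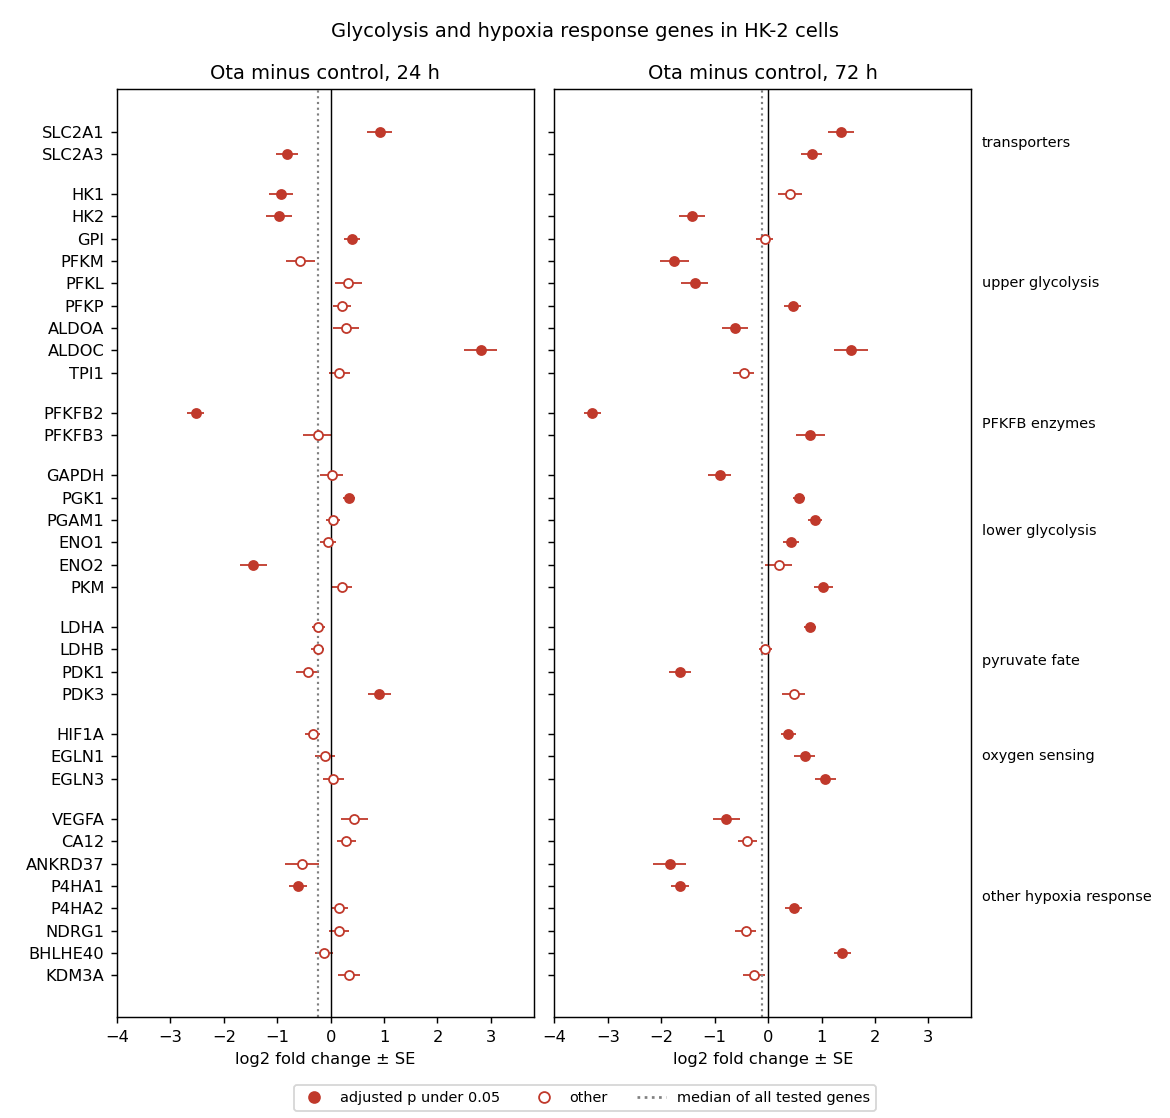
Log2 fold changes of the 34 members tested, Ota minus control, at 24 h (left) and 72 h (right), with SE bars from limma on 3 arrays per group. Filled points have an adjusted p under 0.05, and the dotted line is the median of all 10729 genes (-0.24 and -0.11). As deposited, ALDOC is the point farthest to the right at 24 h and PFKFB2 the point farthest to the left at both times. Under spike-in scaling 33 of the 34 members lie lower at 24 h.

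The plot of fold changes also shows how each member behaved over the 2 times. SLC2A1, ALDOC and PGK1 rose at both times, and HK2, PFKFB2 and P4HA1 fell at both. SLC2A3 fell at 24 h and rose at 72 h. A further 11 members did not pass at 24 h and rose at 72 h (PFKP, PFKFB3, PGAM1, ENO1, PKM, LDHA, HIF1A, EGLN1, EGLN3, P4HA2 and BHLHE40) and 7 did not pass at 24 h and fell at 72 h (PFKM, PFKL, ALDOA, GAPDH, PDK1, VEGFA and ANKRD37). GPI, PDK3, HK1 and ENO2 passed at 24 h alone, and TPI1, LDHB, CA12, NDRG1 and KDM3A at neither time.

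The promoters of 5 of the 6 members that moved the same way at both times are shown. The core of the hypoxia response element, to which HIF1A binds with its partner ARNT, can be read in them. No promoter sequence was used for PFKFB2, the remaining member, so it was not searched. RefSeq sequences (GRCh38.p14, 250 bases before to 50 after the gene start) were given for 33 of the 38 members. The motif searched was ACGTG or GCGTG on either strand, so CACGT or CACGC also count, and overlapping matches were all counted. It was found in 24 of 33 members (72.7%), in 64.3% of the 8890 genes tested that had a promoter, and in 48.4% of all 27305 promoters. Capitals mark the matches, and each sequence runs 5′ to 3′ on the strand of its gene. A match is a description of letters, not a shown binding site.
ALDOC (chr17:28576846-28577145, minus strand, 5 matches, risen at both times): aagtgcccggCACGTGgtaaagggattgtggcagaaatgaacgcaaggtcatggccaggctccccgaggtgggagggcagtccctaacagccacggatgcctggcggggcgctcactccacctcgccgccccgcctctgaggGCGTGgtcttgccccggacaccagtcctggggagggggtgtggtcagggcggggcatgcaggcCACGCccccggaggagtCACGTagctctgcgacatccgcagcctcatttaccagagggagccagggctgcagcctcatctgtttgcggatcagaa
SLC2A1 (chr1:42958819-42959118, minus strand, 1 match, risen at both times): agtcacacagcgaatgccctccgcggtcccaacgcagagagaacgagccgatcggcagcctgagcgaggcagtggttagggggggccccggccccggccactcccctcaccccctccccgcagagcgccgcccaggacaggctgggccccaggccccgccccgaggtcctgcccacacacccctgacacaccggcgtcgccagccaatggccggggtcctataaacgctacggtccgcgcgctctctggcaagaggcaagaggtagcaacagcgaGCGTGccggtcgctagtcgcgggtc
PGK1 (chrX:78103998-78104297, plus strand, 4 matches, risen at both times): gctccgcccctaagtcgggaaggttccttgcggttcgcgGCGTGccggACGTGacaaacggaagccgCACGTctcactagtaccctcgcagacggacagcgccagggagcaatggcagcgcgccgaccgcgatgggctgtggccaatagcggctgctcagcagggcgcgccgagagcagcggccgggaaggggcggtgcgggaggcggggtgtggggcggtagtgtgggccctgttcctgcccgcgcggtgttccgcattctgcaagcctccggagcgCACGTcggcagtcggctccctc
HK2 (chr2:74833877-74834176, plus strand, 3 matches, fallen at both times): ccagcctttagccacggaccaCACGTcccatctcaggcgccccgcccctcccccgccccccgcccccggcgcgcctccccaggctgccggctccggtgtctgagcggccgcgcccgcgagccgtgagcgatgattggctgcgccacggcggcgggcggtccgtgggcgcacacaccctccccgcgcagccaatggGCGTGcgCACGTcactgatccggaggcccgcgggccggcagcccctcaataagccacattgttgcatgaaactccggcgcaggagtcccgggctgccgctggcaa
P4HA1 (chr10:73096817-73097116, minus strand, 1 match, fallen at both times): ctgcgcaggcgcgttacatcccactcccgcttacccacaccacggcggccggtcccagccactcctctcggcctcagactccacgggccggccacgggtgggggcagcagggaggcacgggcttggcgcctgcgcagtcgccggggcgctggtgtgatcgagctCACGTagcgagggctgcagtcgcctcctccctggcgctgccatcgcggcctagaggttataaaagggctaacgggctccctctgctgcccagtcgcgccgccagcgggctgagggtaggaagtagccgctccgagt

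Both glucose transporter genes among the members were higher with Ota at 72 h, and they differed at 24 h. SLC2A1, which encodes the basal transporter GLUT1, had 7.87, 7.28 and 8.10 on the Ota arrays and 6.70, 7.03 and 6.76 on the 24 h control arrays. At 72 h it had 7.93, 7.72 and 7.38 with Ota and 6.25, 6.04 and 6.65 in controls. Every Ota array lay above every control array of its time. Its log2 fold change was 0.92 ± 0.24 at 24 h (limma adjusted p = 0.00521) and 1.36 ± 0.24 at 72 h (adjusted p = 0.000364), and the change between times did not pass (0.44, adjusted p = 0.291). Spike-in scaling turned the 24 h value to -0.93 and left 0.48 at 72 h, which did not pass.

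SLC2A3, which encodes the high-affinity transporter GLUT3, went opposite ways at the 2 times. It had 7.80, 7.91 and 7.32 with Ota and 8.50, 8.45 and 8.52 in controls at 24 h. The 72 h arrays had 9.14, 9.09 and 9.13 with Ota and 8.16, 7.998 and 8.75 in controls. The Ota arrays lay below all controls at 24 h and above all controls at 72 h. The effects were -0.81 ± 0.20 (limma adjusted p = 0.00447) and 0.81 ± 0.20 (adjusted p = 0.00456), and their difference was 1.63 ± 0.29 (adjusted p = 0.000812). Its other 2 probe sets had the same signs, between -2.26 and -1.05 at 24 h and at 0.72 at 72 h. Centring ended the 24 h call (-0.25), and spike-in scaling ended the 72 h call (-0.08).

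**Figure D2:**
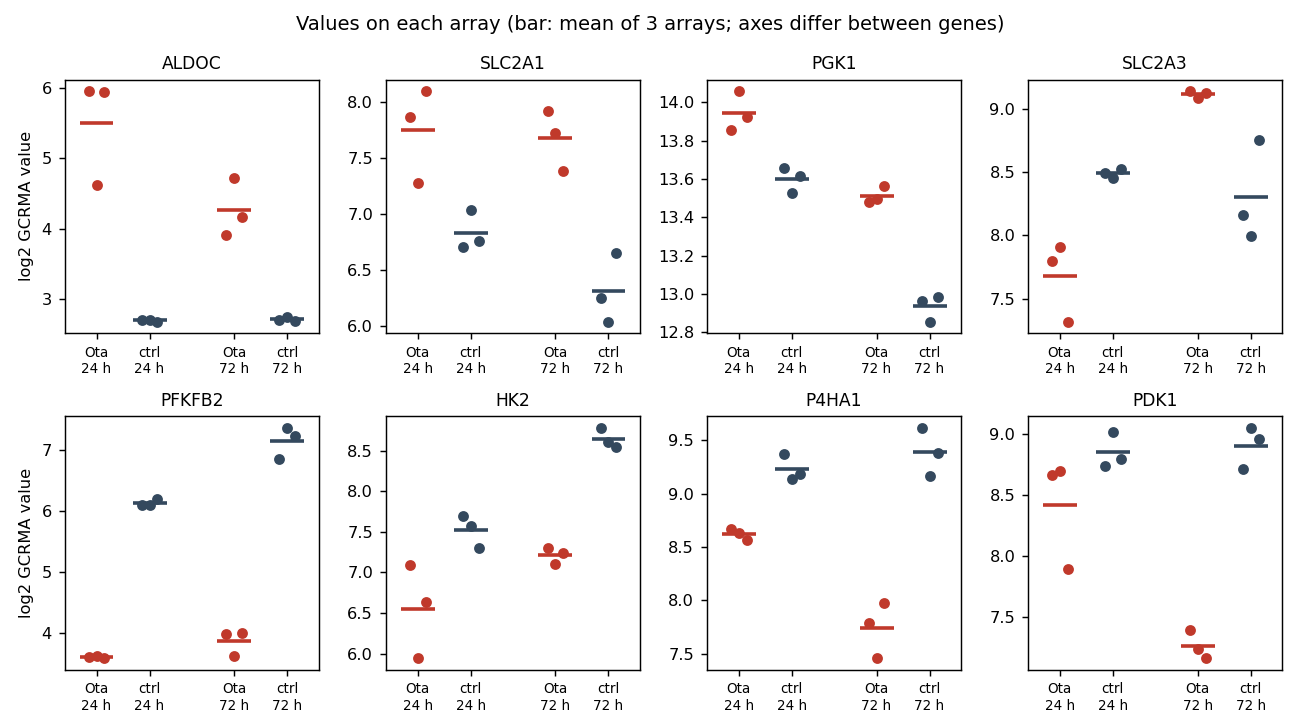
Log2 GCRMA values on each of the 12 arrays for 8 members, with a bar at the mean of 3 arrays; the groups are Ota and control (ctrl) at 24 h and at 72 h, and each panel has its own axis. The Ota points of ALDOC, SLC2A1 and PGK1 lie above the control points at both times as deposited, those of PFKFB2, HK2 and P4HA1 lie below at both times, and SLC2A3 changes sides. Spike-in scaling turns the 24 h difference of SLC2A1 and PGK1 to -0.93 and -1.51, the 72 h difference of PGK1 to -0.31 and that of SLC2A3 to -0.08.

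The hexokinases trap glucose by phosphorylating it, and both hexokinase genes among the members were lower with Ota at 24 h. HK2, the inducible isoform, had 7.09, 5.94 and 6.63 with Ota and 7.70, 7.57 and 7.30 in controls at 24 h, and 7.30, 7.11 and 7.25 with Ota and 8.78, 8.61 and 8.55 in controls at 72 h. All Ota arrays lay below all controls at both times on the probe set used. The other HK2 probe sets over the filter, 222305_at and 239410_at, were lower too. They passed the filter only through control arrays and had to differ, so their direction adds no support. The fold change was -0.97 ± 0.24 at 24 h (limma adjusted p = 0.00418) and -1.43 ± 0.24 at 72 h (adjusted p = 0.000291). HK1, the widely expressed isoform, had 9.95, 10.55 and 9.60 with Ota and 11.09, 11.10 and 10.70 in controls at 24 h. The 24 h groups did not overlap, with a fold change of -0.93 ± 0.22 (adjusted p = 0.00347). At 72 h HK1 averaged 10.04 ± 0.18 with Ota and 9.63 ± 0.14 in controls (SD, n = 3 each), a difference of 0.41 that did not pass (adjusted p = 0.134). Centring ended the 24 h calls of both genes (-0.41 for HK2 and -0.37 for HK1).

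GPI, which turns glucose 6-phosphate to fructose 6-phosphate, had 12.38, 12.57 and 12.22 with Ota and 12.08, 12.07 and 11.82 in controls at 24 h. The groups did not overlap, and the rise was 0.40 ± 0.15 (limma adjusted p = 0.0409). That call was lost when any of 8 arrays was left out (0.31 to 0.45, adjusted p = 0.0554 to 0.14): Ota 24 h replicates 1 and 2 and all replicates of control 24 h and control 72 h. It was also lost under quantile normalization (0.35), and spike-in scaling gave -1.45. At 72 h GPI differed by -0.07 (adjusted p = 0.735).

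The 3 phosphofructokinase genes, whose enzymes catalyse the committed step of glycolysis, diverged at 72 h. PFKM, the muscle-type subunit, had 7.92, 7.31 and 8.34 with Ota at 72 h and 9.71, 9.76 and 9.37 in controls. The 72 h groups lay more than 1 unit apart at their closest arrays, and the fold change was -1.76 ± 0.27 (limma adjusted p = 0.00015). PFKL, the liver-type subunit, fell too (-1.37 ± 0.25, adjusted p = 0.000542), with means of 6.42 ± 0.57 with Ota and 7.80 ± 0.10 in 72 h controls (SD, n = 3 each). PFKP, the platelet-type subunit, rose by 0.46 ± 0.17 (adjusted p = 0.0314). That rise was lost without Ota 72 h replicate 3, control 72 h replicate 1 or control 72 h replicate 2 (0.32 to 0.47), and spike-in scaling turned it to -0.43. At 24 h the 3 genes did not pass (-0.57, 0.33 and 0.21, in the order PFKM, PFKL, PFKP).

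The aldolases split fructose 1,6-bisphosphate, and their genes moved apart. ALDOC, the isoform best known from brain, had 5.95, 4.63 and 5.95 with Ota and 2.71, 2.71 and 2.68 in controls at 24 h. After 72 h the values were 3.92, 4.72 and 4.17 with Ota and 2.71, 2.75 and 2.69 in controls. All 6 control arrays were near the lower end of the scale, so the gene passed the filter only through its Ota arrays and had to differ. The fold change was 2.81 ± 0.31 at 24 h (limma adjusted p = 1.21e-05) and 1.55 ± 0.31 at 72 h (adjusted p = 0.0011), and spike-in scaling ended the 72 h call (0.66, adjusted p = 0.093). ALDOA, the main isoform of most tissues, did not pass at 24 h (0.29, adjusted p = 0.323). It fell by 0.62 ± 0.24 at 72 h (adjusted p = 0.0443). That call was lost without any of 8 arrays (Ota 24 h replicate 1, control 24 h replicates 1 and 2, Ota 72 h replicates 1 and 2, and the 3 control 72 h arrays; adjusted p = 0.0508 to 0.168) and under centring (-0.34). TPI1, which interconverts the triose phosphates that aldolase releases, passed at neither time (0.16 and -0.46, adjusted p = 0.491 and 0.0625). Of the 9 upper glycolysis genes, 2 rose and 2 fell at 24 h (22.2% each), beside 20.8% and 40.5% of all genes tested. At 72 h 2 rose and 4 fell (22.2% and 44.4%), beside 24.8% and 35.2%. After centring the 24 h counts were 6 risen and 0 fallen and after spike-in scaling 1 and 8, and at 72 h they were 3 and 3 and 0 and 6 under these scales.

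The PFKFB enzymes make and break fructose 2,6-bisphosphate, the strongest activator of phosphofructokinase. PFKFB2, the isoform known from heart and kidney, had 3.61, 3.62 and 3.59 with Ota and 6.11, 6.10 and 6.20 in controls at 24 h. After 72 h they were 3.98, 3.62 and 4.004 with Ota and 6.86, 7.37 and 7.24 in controls. The Ota arrays sat below or close to the filter level of 4, so the gene passed only through its control arrays and had to differ. The fold change was -2.53 ± 0.16 at 24 h (limma adjusted p = 1.54e-07) and -3.29 ± 0.16 at 72 h (adjusted p = 3.29e-08). Another probe set of PFKFB2 rose at 72 h, as described with the probe sets below, and the mean over both gave 0.49 at 72 h. PFKFB3, the inducible isoform with mostly synthetic activity, did not pass at 24 h (-0.24, adjusted p = 0.456). It rose by 0.79 ± 0.27 at 72 h (adjusted p = 0.0239), with means of 9.61 ± 0.49 with Ota and 8.82 ± 0.23 in controls (SD, n = 3 each). That call was lost without Ota 72 h replicates 1 or 3 or control 72 h replicates 1 or 2 (0.60 to 0.79), and spike-in scaling gave -0.10.

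In the lower part of the pathway, from glyceraldehyde 3-phosphate to pyruvate, 4 of 6 genes rose at 72 h and 1 fell. Of all genes tested 24.8% rose and 35.2% fell at that time, and no test compared the parts of the pathway. The counts of lower glycolysis genes were the same under quantile normalization and centring, while spike-in scaling left 0 risen and 1 fallen. PGK1, whose enzyme makes the first ATP of the pathway, had 13.85, 14.06 and 13.92 with Ota and 13.66, 13.53 and 13.61 in controls at 24 h, and 13.48, 13.49 and 13.56 with Ota and 12.96, 12.86 and 12.99 in controls at 72 h. The groups did not overlap at either time. The rise was 0.34 ± 0.12 at 24 h (limma adjusted p = 0.0257) and 0.58 ± 0.12 at 72 h (adjusted p = 0.00128). With the replicate number as a block the 24 h p was 0.0552, and that call was also lost without Ota 24 h replicate 2, control 24 h replicate 2 or control 24 h replicate 3 (0.29 to 0.35). Spike-in scaling turned both values, to -1.51 and -0.31.

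PGAM1, the phosphoglycerate mutase, had 13.39, 13.16 and 13.56 with Ota and 12.55, 12.47 and 12.45 in controls at 72 h. The groups did not overlap, and the rise was 0.88 ± 0.13 (limma adjusted p = 0.000126), against 0.05 at 24 h (adjusted p = 0.783). PKM, the pyruvate kinase of most tissues, had 12.29, 12.20 and 12.69 with Ota and 11.41, 11.43 and 11.24 in controls at 72 h. All 3 Ota arrays lay above all controls, with a rise of 1.03 ± 0.18 (adjusted p = 0.000445), while the 24 h value of 0.22 did not pass. ENO1, the general enolase, rose by 0.43 ± 0.15 at 72 h (adjusted p = 0.0243), a call lost without Ota 72 h replicate 3, control 72 h replicate 1 or control 72 h replicate 2 (0.30 to 0.41). Spike-in scaling gave -0.01 for PGAM1, 0.14 for PKM and -0.46 for ENO1 at 72 h. ENO2, the enolase known from neurons, had 6.44, 7.27 and 6.58 with Ota and 8.13, 8.42 and 8.08 in controls at 24 h. Its 24 h groups did not overlap, and it fell by 1.44 ± 0.24 (adjusted p = 0.000309). At 72 h the ENO2 difference was 0.19 (adjusted p = 0.517).

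GAPDH, which carries out the oxidation step of glycolysis and often serves as a loading reference, did not differ detectably at 24 h and was lower with Ota at 72 h. It had 15.18, 15.43 and 15.20 with Ota and 15.18, 15.46 and 15.10 in controls at 24 h, where the groups overlapped (0.02 ± 0.22, limma adjusted p = 0.942). At 72 h it had 13.81, 14.79 and 14.11 with Ota and 15.19, 15.15 and 15.09 in controls, where they did not. The 72 h difference was -0.91 ± 0.22 (adjusted p = 0.00359), and its other 2 probe sets gave -1.0 and -0.88. On the 12 arrays the GAPDH probe set ranked between 3 and 227 in brightness, within 0.01 to 1.75 of the brightest value, where the scale has little room above.

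At the fate of pyruvate, LDHA, the lactate dehydrogenase subunit that favours lactate formation, did not pass at 24 h (-0.24, limma adjusted p = 0.109). It rose by 0.78 ± 0.12 at 72 h (adjusted p = 0.000146), with means of 14.54 ± 0.09 with Ota and 13.75 ± 0.06 in controls (SD, n = 3 each). Spike-in scaling turned that value to -0.11. LDHB, the subunit that favours the reverse reaction, passed at neither time (-0.24 and -0.05), and it lay within 0.38 to 0.66 of the brightest probe set on every array. The PDK genes encode kinases that switch pyruvate dehydrogenase off. PDK1, a known HIF1A target, had 7.39, 7.24 and 7.16 with Ota and 8.71, 9.05 and 8.96 in controls at 72 h. Its groups lay far apart, with a difference of -1.64 ± 0.21 (adjusted p = 3.37e-05), against -0.43 at 24 h (adjusted p = 0.0917). The other PDK1 probe set over the filter did not pass (0.31 and -0.07), and the mean over both gave -0.86 at 72 h. PDK3 had 9.61, 9.95 and 9.48 with Ota and 8.74, 9.02 and 8.56 in controls at 24 h. The 24 h groups did not overlap and PDK3 rose by 0.91 ± 0.21 (adjusted p = 0.00304), but 2 of its 4 probe sets fell (-0.47 and -0.79), the mean over them gave 0.13, and spike-in scaling gave -0.94. At 72 h PDK3 differed by 0.48 (adjusted p = 0.0739).

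None of the 3 oxygen sensing genes passed at 24 h and all 3 rose at 72 h, beside 61.3% of all genes tested passing at 24 h and 24.8% rising at 72 h. Quantile normalization gave the same counts, centring gave 2 risen at 24 h and 3 at 72 h, and spike-in scaling gave 3 fallen at 24 h and none that passed at 72 h. HIF1A had 14.04, 13.68 and 14.07 with Ota and 14.27, 14.17 and 14.36 in controls at 24 h. At 72 h it had 14.41, 14.33 and 14.56 with Ota and 14.11, 14.03 and 14.01 in controls. The Ota arrays lay below the controls at 24 h and above them at 72 h. The 24 h difference of -0.34 ± 0.14 did not pass (limma adjusted p = 0.0574) and the 72 h rise was 0.38 ± 0.14 (adjusted p = 0.0356). That rise was lost without Ota 72 h replicates 1 or 3 or any control 72 h array (0.32 to 0.41), and spike-in scaling gave -0.51. EGLN3, a prolyl hydroxylase that hypoxia itself induces, had 5.09, 4.57 and 4.82 with Ota and 3.88, 3.48 and 3.91 in controls at 72 h. All Ota arrays lay above 4 and all controls below it, and the rise was 1.07 ± 0.20 (adjusted p = 0.000648). EGLN1, the main HIF1A hydroxylase, rose by 0.68 ± 0.19 at 72 h (adjusted p = 0.00931), and its other 2 probe sets gave 0.997 and 1.23. Spike-in scaling left 0.18 for EGLN3 and turned EGLN1 to -0.21.

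Of the 8 other hypoxia response genes tested, 0 rose and 1 fell at 24 h, beside 20.8% and 40.5% of all genes tested. At 72 h 2 rose and 3 fell (25.0% and 37.5%), near the 24.8% and 35.2% of all genes tested. After centring these counts were 6 and 0 at 24 h and 2 and 2 at 72 h, and after spike-in scaling 0 and 8 and then 0 and 6. BHLHE40, a transcriptional repressor induced by hypoxia and the circadian clock, had 9.69, 9.61 and 9.67 with Ota and 8.47, 7.96 and 8.38 in controls at 72 h. The groups were more than 1 unit apart, with a rise of 1.39 ± 0.16 (limma adjusted p = 1.87e-05), against -0.12 at 24 h. Spike-in scaling left 0.50, which did not pass. P4HA2, an alpha subunit of the collagen prolyl hydroxylase, rose by 0.48 ± 0.15 at 72 h (adjusted p = 0.0182). The P4HA2 call was lost without Ota 72 h replicate 3 or control 72 h replicate 1 (0.42 each), another of its probe sets fell (-1.47), and spike-in scaling gave -0.41.

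P4HA1, the other alpha subunit of the collagen prolyl hydroxylase, was lower with Ota at both times. It had 8.67, 8.63 and 8.57 with Ota and 9.37, 9.13 and 9.19 in controls at 24 h, and 7.79, 7.46 and 7.98 with Ota and 9.62, 9.16 and 9.38 in controls at 72 h. The groups did not overlap at either time, with differences of -0.61 ± 0.17 (limma adjusted p = 0.00762) and -1.65 ± 0.17 (adjusted p = 5.9e-06). Centring ended the 24 h call (-0.05). ANKRD37, a small ankyrin repeat protein gene known as a HIF1A target, had 5.01, 4.71 and 4.13 with Ota and 6.40, 6.44 and 6.54 in controls at 72 h. Its Ota arrays lay more than 1 unit below the controls, and the difference was -1.84 ± 0.32 (adjusted p = 0.000327), against -0.53 at 24 h (adjusted p = 0.161).

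VEGFA, the growth factor of blood vessels, fell by 0.78 ± 0.25 at 72 h (limma adjusted p = 0.0189), with means of 10.52 ± 0.40 with Ota and 11.30 ± 0.24 in controls (SD, n = 3 each). Its 4 probe sets shared that direction, between -1.34 and -0.62. The call was lost without Ota 72 h replicate 2 (-0.56), without control 72 h replicate 3 (-0.65) and under centring (-0.50). CA12, a membrane carbonic anhydrase, NDRG1, a stress-induced gene, and KDM3A, a histone demethylase, passed at neither time. Their values were 0.30 and -0.39 for CA12, 0.16 and -0.42 for NDRG1, and 0.35 and -0.27 for KDM3A, at 24 h and 72 h.

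Whether the effect of Ota itself differed between the times was tested as the 72 h effect minus the 24 h effect. Of the 34 members, 11 moved upward and 11 downward, against a background of 29.6% and 19.9% of all genes tested (49.5% in either direction). The split depended on the scale, with 6 upward and 15 downward after centring and 17 upward and 0 downward after spike-in scaling. Quantile normalization gave 10 upward and 14 downward. Upward changes were those of ENO2 (-1.44 at 24 h and 0.19 at 72 h), SLC2A3 (-0.81 and 0.81), BHLHE40 (-0.12 and 1.39), HK1 (-0.93 and 0.41), PFKFB3 (-0.24 and 0.79), EGLN3 (0.05 and 1.07), LDHA (-0.24 and 0.78), PGAM1 (0.05 and 0.88), PKM (0.22 and 1.03), EGLN1 (-0.10 and 0.68) and HIF1A (-0.34 and 0.38). Centring ended the calls of EGLN1, EGLN3, HIF1A, PFKFB3 and PKM (0.51, 0.74, 0.44, 0.75 and 0.54), and quantile normalization those of EGLN3 and PFKFB3 (0.65 and 0.83). Downward changes were those of PFKL (0.33 and -1.37), ANKRD37 (-0.53 and -1.84), ALDOC (2.81 and 1.55), VEGFA (0.44 and -0.78), PDK1 (-0.43 and -1.64), PFKM (-0.57 and -1.76), P4HA1 (-0.61 and -1.65), GAPDH (0.02 and -0.91), ALDOA (0.29 and -0.62), PFKFB2 (-2.53 and -3.29) and CA12 (0.30 and -0.39). The PFKFB2 mean was 3.61 at 24 h and 3.87 at 72 h with Ota, below the filter level, and 6.14 and 7.16 in controls. ALDOC had controls near the lower end of the scale at both times and passed the filter only through Ota arrays. In this comparison 13 of the 22 calls passed without each array in turn, and the other 9 were lost without 2 or more arrays.

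Control cells alone also changed between 24 h and 72 h, and each 72 h difference is measured against these later controls. In the control cells at 72 h against those at 24 h, 6 members rose and 12 fell, beside 12.2% and 13.3% of all genes tested (25.5% in either direction). The arrays of the 2 times did not overlap for 21 members, beside 53.5% of all genes tested. Every lower glycolysis gene but GAPDH fell (5 of 6, and 2 of 6 under spike-in scaling; the ENO2 call was lost without control 24 h replicate 2 or control 72 h replicate 3). VEGFA averaged 11.30 ± 0.24 at 72 h and 9.26 ± 0.44 at 24 h (SD, n = 3 each; 2.04 ± 0.25, limma adjusted p = 0.00015). NDRG1 (1.19 ± 0.19), ANKRD37 (1.13 ± 0.32) and HK2 (1.12 ± 0.24) rose too, although the ANKRD37 call was lost without any of 5 control arrays (all but control 24 h replicate 3; 1.05 to 1.16) and under spike-in scaling (1.10). PKM averaged 11.36 ± 0.10 at 72 h and 12.72 ± 0.27 at 24 h (SD, n = 3 each; -1.36 ± 0.18, adjusted p = 0.000262). HK1 (-1.33 ± 0.22), EGLN3 (-1.23 ± 0.20) and GPI (-1.15 ± 0.15) followed among the falls. TPI1 fell by 0.98 ± 0.20, and its probe set 200822_x_at fell by 1.07. A dimmer TPI1 probe set, 210050_at, lay between 6.01 and 6.08 on all control arrays and differed by 0.02.

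On the deposited scale the means of PGAM1, PKM and LDHA moved less between the times with Ota than in controls, as the plot over time shows. The spike-ins averaged 9.83 at 24 h and 8.91 at 72 h with Ota, and 7.98 and 8.02 in controls. Scaling to them would therefore shift the Ota means between the times, and the statement holds for the deposited scale only. PGAM1 averaged 13.37 ± 0.20 with Ota and 12.49 ± 0.05 in controls at 72 h, after 13.65 ± 0.05 with Ota and 13.61 ± 0.05 in 24 h controls (SD, n = 3 each). PKM averaged 12.39 ± 0.26 with Ota and 11.36 ± 0.10 in controls at 72 h, after 12.94 ± 0.21 and 12.72 ± 0.27 at 24 h. LDHA averaged 14.54 ± 0.09 with Ota and 13.75 ± 0.06 in controls at 72 h, after 14.30 ± 0.09 and 14.54 ± 0.05 at 24 h. PFKL ran the other way, at 6.42 ± 0.57 with Ota and 7.80 ± 0.10 in controls at 72 h, after 8.49 ± 0.23 and 8.16 ± 0.25 at 24 h. These changes of effect were 0.83 ± 0.19 for PGAM1, 0.82 ± 0.26 for PKM, 1.02 ± 0.17 for LDHA and -1.70 ± 0.36 for PFKL (limma adjusted p = 0.00342, 0.0219, 0.00055 and 0.00228). The PKM call was lost without control 24 h replicates 1 or 2 or control 72 h replicate 3 (0.73 to 0.76), and under centring (0.54).

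Of the 34 members, 19 had more than 1 probe set over the filter, which read different stretches or forms of a transcript. For 1 member at 24 h (PDK3) and 2 at 72 h (P4HA2 and PFKFB2) another probe set passed in the opposite direction. Over all probe sets, 60.5% passed in either direction at 24 h and 58.8% at 72 h. The share of all genes with probe sets passing in opposite directions was not counted. PGK1 had 6, all higher with Ota at both times, but their sizes ranged from 0.34 to 3.78 at 24 h and from 0.58 to 4.43 at 72 h. Its probe set 1558365_at had 8.79, 9.07 and 8.84 with Ota and 4.72, 5.56 and 5.10 in controls at 24 h. Its 72 h values were 10.09, 10.34 and 10.22 with Ota and 5.63, 5.80 and 5.94 in controls. The groups lay more than 3 units apart at each time, while on the probe set used for PGK1 they lay less than 1 unit apart. The PFKFB2 probe set 209992_at had 3.21, 2.89 and 4.55 with Ota and 3.48, 2.96 and 3.01 in controls at 24 h, where the groups overlapped. Its 72 h values were 7.23, 6.50 and 7.94 with Ota and 2.86, 3.17 and 2.84 in controls, a difference of 4.27 beside -3.29 on the other probe set. All 6 controls of 209992_at were below 4, so it passed the filter only through Ota arrays and had to differ. Which transcript form each probe set reads was not tested.

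**Figure D3:**
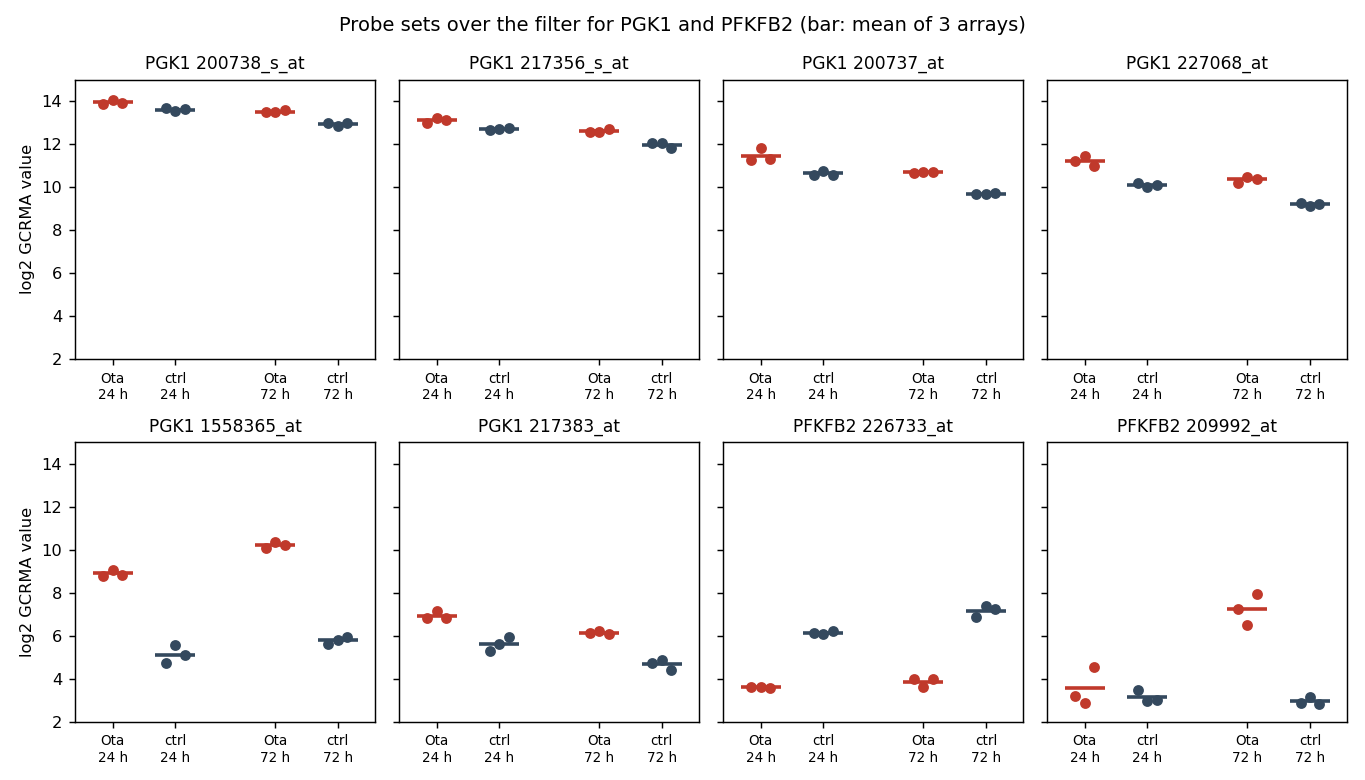
Log2 GCRMA values on the 12 arrays for the 6 PGK1 and 2 PFKFB2 probe sets over the filter, with bars at means of 3 arrays; groups are Ota and control (ctrl) at 24 h and 72 h. All PGK1 probe sets are higher with Ota as deposited (spike-in scaling turns the one used for the gene to -1.51 and -0.31), with 1558365_at the farthest apart, and the PFKFB2 probe sets differ in opposite directions at 72 h.

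Genes around the pathway were counted from lists chosen beside the members. Of 8 glycogen genes 1 rose and 7 fell at 24 h, and 2 rose and 5 fell at 72 h, with medians of -0.60 and -0.69. Among them PPP1R3C, which brings phosphatase to glycogen (-3.67 and -1.56), GBE1, the branching enzyme (-0.86 and -0.58), and GYS1, the glycogen synthase (-0.57 and -3.57), fell. PPP1R3B, another such targeting subunit, had -0.63 at 24 h and 0.83 at 72 h. PYGL, the liver-type phosphorylase, rose at both times (0.54 and 0.61). Of 6 pentose phosphate genes 1 rose and 1 fell at 24 h and 0 rose and 3 fell at 72 h, with RPE, the ribulose phosphate epimerase, at -4.31 and -2.58 and PGLS, the lactonase, at -2.04 at 72 h. TALDO1, the transaldolase, rose by 0.45 at 24 h. Of 2 gluconeogenesis genes tested, neither passed at 24 h and both fell at 72 h: PCK2, which makes phosphoenolpyruvate in mitochondria (-4.52), and G6PC3, a glucose 6-phosphatase (-1.02).

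Of 11 genes for the entry of pyruvate into mitochondria, 0 rose and 6 fell at 24 h, and 3 rose and 7 fell at 72 h. Here PDK4 (-2.24 and -1.05) and PDK2 (-1.21 and -2.15), both pyruvate dehydrogenase kinases like PDK1, were lower with Ota at 24 h and 72 h. MPC1, part of the pyruvate carrier, was lower at 72 h (-1.70). The pyruvate dehydrogenase component PDHX (1.46) and the activating phosphatase PDP1 (0.71) rose at 72 h. Of 14 citrate cycle genes, 3 rose and 2 fell at 24 h and 4 rose and 6 fell at 72 h. At 72 h the 3 subunit genes of the isocitrate dehydrogenase of the cycle differed, with IDH3A at 2.35, IDH3B at -3.22 and IDH3G at -1.77. OGDH, which encodes a part of the oxoglutarate dehydrogenase complex, had -0.47 at 24 h and 1.74 at 72 h. MDH2 (0.54) and SDHC (0.38) rose at 24 h, and SDHA fell by 0.65. MDH2 rose at 72 h too (0.81). SDHC fell at 72 h (-0.49), and its change of effect was -0.87 (limma adjusted p = 0.00169).

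Of 11 genes of the HIF machinery, 0 rose and 5 fell at 24 h, and 1 rose and 3 fell at 72 h. Lower were ARNT, the partner of HIF1A (-1.95 and -1.88), CITED2, a competitor for the coactivators of HIF1A (-2.69 and -1.80), and ELOB, an elongin of the complex that destroys HIF1A (-2.03 at 72 h). ELOC, the other elongin, rose by 0.87 at 72 h. Of 21 further hypoxia targets, 3 rose and 4 fell at 24 h, and 5 rose and 10 fell at 72 h. STC2, a secreted glycoprotein (4.41 and 3.05), ADM, a vasodilator peptide (2.29 and 2.40), and ANGPTL4, a lipase inhibitor (2.51 at 72 h), rose. However, ANGPTL4 passed the filter only through its Ota 72 h arrays and had to differ. DDIT4, an inhibitor of mTOR signalling (-4.39 and -3.90), PLIN2, a lipid droplet protein (-2.01 at 24 h), and LOX, a collagen cross-linking enzyme (-4.23 at 72 h), fell.

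Of 11 regulators upstream of glycolysis genes, 3 rose and 4 fell at 24 h and 6 rose and 3 fell at 72 h. The kinase genes AKT2 (2.24 and 2.91) and PRKAA2 (1.08 and 1.31) rose at both times, and MLX, a partner of glucose-sensing transcription factors (-3.72 and -1.84), fell at both. TIGAR, which lowers fructose 2,6-bisphosphate, fell at 24 h (-2.39) and rose at 72 h (0.96). Its change of effect was 3.34 (limma adjusted p = 8.06e-05). MAX, the partner of MYC, fell at both times (-0.94 and -1.23). Of 6 other isoforms tested, 1 rose and 1 fell at 24 h and 1 rose and 2 fell at 72 h. These were SLC16A7, a monocarboxylate transporter (0.51 at 24 h), BPGM, the bisphosphoglycerate mutase (1.24 at 72 h), the hexokinase gene HKDC1 (-1.58 and -1.52) and the enolase gene ENO3 (-2.37 at 72 h). These single values are as deposited, and each list's counts stand beside the background of 20.8% risen and 40.5% fallen at 24 h and 24.8% and 35.2% at 72 h. A listed gene given at a single time may have passed at the other time too.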

How the data were processed

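The 12 arrays were grouped by the labels (Ota or vehicle control, 24 h or 72 h, 3 arrays each). The authors deposited log2 expression values per probe set made with GCRMA, per the submitters' processing notes; version, arrays used in the normalization and later filters are not given in the sources used here. Of 54675 probe sets, 41097 had 1 gene symbol in the platform annotation, 1801 several and 11777 none, and 62 were Affymetrix controls; 41043 of the first matched a current gene record and 0 symbols changed. The table held 0 columns of other samples.

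Single-symbol probe sets were kept where at least 3 of 12 arrays exceeded 4, and the brightest on average stood for its gene, which left 10729 genes. A model of 4 group means was fitted to all of them with limma 3.58.1 in R 4.3.3 (lmFit and eBayes, residual degrees of freedom 8), with two-sided tests and Benjamini-Hochberg adjustment over all genes, and was tested on simulated data. Every adjusted p in the text is limma's. Array-wide values were compared by exact permutation. Arrays have no read depth.

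The members, gene lists and tests were chosen with earlier results of these data known. Values on every array are given for up to 6 members with the largest rise and 6 with the largest fall with Ota at each time whose groups do not overlap, and for HIF1A and GAPDH; other values follow the counts. From a context list up to 2 genes per direction are named.

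Equal replicate numbers were checked by correlating deviations from the group means. At 24 h equal numbers gave r = 0.125, 0.231 and 0.271, each above the values of unequal numbers (-0.245 to 0.017). At 72 h they gave -0.0522, 0.139 and 0.192. These correlations were weak and were not tested, and the labels state no pairing. A fit with the number as a block within each time was therefore run beside the main fit, which had no block. The other alternatives were centring of arrays on their medians, quantile normalization, scaling to the 24 poly-A spike-in probe sets, no filter, a filter at 6 or on the mean, averaging the probe sets of a gene, leaving out probe sets marked _x_at or _s_at (shared between transcripts), a variance trend, array weights, the 6 arrays of a comparison alone, stricter thresholds, and leaving out each array.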

Additional observations from a re-analysis of the deposited data

Results flagged for a closer look

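The effect of Ota differed between 24 h and 72 h by limma's test of the difference for 22 members. The differences (72 h minus 24 h, log2) were 1.64 for ENO2, 1.63 for SLC2A3, 1.51 for BHLHE40, 1.34 for HK1, 1.03 for PFKFB3, 1.02 for LDHA, 1.02 for EGLN3, 0.83 for PGAM1, 0.82 for PKM, 0.79 for EGLN1 and 0.72 for HIF1A. In the other direction they were -1.70 for PFKL, -1.31 for ANKRD37, -1.26 for ALDOC, -1.22 for VEGFA, -1.21 for PDK1, -1.20 for PFKM, -1.04 for P4HA1, -0.93 for GAPDH, -0.90 for ALDOA, -0.76 for PFKFB2 and -0.68 for CA12. Of all genes tested 49.5% passed this test, so the members' share is set beside that figure. The PFKFB2 means with Ota lay below the filter level at both times, and ALDOC controls lay near the lower end of the scale. Both limit the size of these differences.

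Of these calls, ALDOC was lost without any of 10 arrays (all but Ota 24 h replicate 2 and Ota 72 h replicate 2), with a highest adjusted p of 0.0847. ALDOA was lost without any of 8 (all but Ota 24 h replicate 3, control 24 h replicates 1 and 2 and Ota 72 h replicate 3), CA12 without any of 8 (replicates 1 and 2 at 24 h and 1 and 3 at 72 h, Ota and control), and PFKFB3 without any of 8 (Ota 24 h replicates 1 and 2, control 24 h 1 and 3, Ota 72 h 1 and 3, control 72 h 1 and 2). ANKRD37 was lost without Ota 24 h replicate 1, control 24 h replicates 1 or 2, Ota 72 h replicate 3 or control 72 h replicates 2 or 3. EGLN1 was lost without any control 24 h array, Ota 72 h replicate 3 or control 72 h replicates 1 or 3, and GAPDH without control 24 h replicates 1 or 3, Ota 72 h replicates 1 or 3 or control 72 h replicates 1 or 2. PFKM was lost without control 72 h replicates 1 or 2 (-1.15 to -1.12).

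Probe sets not used for their gene showed larger signals than those used. PGK1 probe set 1558365_at differed between Ota and control by 3.78 at 24 h and 4.43 at 72 h (the probe set used gave 0.34 and 0.58), and PFKFB2 probe set 209992_at by 4.27 at 72 h (the probe set used gave -3.29). All 3 Ota arrays lay above all 3 controls in each case, and 209992_at passed the filter only through Ota arrays. What these probe sets read was not tested.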

How the results depend on the processing

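Centring or spike-in scaling moved most counts of members. Quantile normalization moved them less, with 6 risen and 7 fallen at 24 h and 15 and 12 at 72 h. It gave 10 upward and 14 downward for the change between times, and 6 risen and 12 fallen for control time. At 24 h the risen and fallen members were 21 and 2 after centring, 1 and 33 after spike-in scaling and 11 and 11 with array weights. Leaving out _x_at and _s_at probe sets, the 6 arrays alone and adjusted p under 0.01 each left 3 risen, and a log2 fold change of at least 1 left 1 risen and 2 fallen. At 72 h spike-in scaling gave 0 risen and 16 fallen, probe sets without _x_at and _s_at 7 and 4, and a fold change of at least 1 left 5 risen. For the change between times, centring gave 6 upward, spike-in scaling 17 upward and 0 downward, no filter 5 downward, and probe sets without _x_at and _s_at 5 in each direction. Adjusted p under 0.01 gave 6 and 3, and a fold change of at least 1 gave 7 in each direction. For control time, spike-in scaling left 6 fallen, probe sets without _x_at and _s_at 5, and a fold change of at least 1 left 5.

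Leaving out each array in turn gave 3 to 5 risen and 6 to 8 fallen at 24 h, 10 to 16 and 8 to 12 at 72 h, 8 to 12 upward and 6 to 12 downward for the change, and 4 to 6 and 9 to 13 for control time. The 24 h count was 3 without control 24 h replicate 2 or 3, and the downward count was 6 or 7 without replicate 1 of any group, or without control 72 h replicates 2 or 3. With the replicate block, 4 rose and 6 fell at 24 h, 16 and 11 at 72 h, and 11 and 10 moved between times. The block ended the calls of PGK1 at 24 h (adjusted p = 0.0552) and of CA12 between times (0.075) and no other; control time could not be fitted with it.

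Spike-in scaling reversed, at 24 h, GPI (-1.45), PDK3 (-0.94), PGK1 (-1.51) and SLC2A1 (-0.93). At 72 h it reversed EGLN1 (-0.21), ENO1 (-0.46), HIF1A (-0.51), LDHA (-0.11), P4HA2 (-0.41), PFKFB3 (-0.10), PFKP (-0.43), PGAM1 (-0.011), PGK1 (-0.31) and SLC2A3 (-0.075), and between times ALDOA (0.058), CA12 (0.28), GAPDH (0.034) and PFKFB2 (0.20). The mean over probe sets reversed P4HA2 (-0.49) and PFKFB2 (0.49) at 72 h and PFKFB2 between times (1.55). Without _x_at and _s_at probe sets TPI1 over control time was 0.021, read from 210050_at alone. The members' median minus that of all genes was 0.27 at 24 h and -0.29 between times. It became -0.00802 and 0.21 with no filter, and 0.037 between times with the mean over probe sets. Which scale fits these cells was not tested, and values near 4 or near the top of the scale limit the size of a difference.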
